A study of Mus musculus with 120 samples.

Results

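The genes described here encode the subunits of the proteasome, measured in mouse liver. The members were all probe sets whose gene symbol begins with Psma, Psmb, Psmc, Psmd, Psme or Psmg followed by a digit, leaving out Psmb8, Psmb9 and Psmb10, and this rule took 95 probe sets of 45 genes from the 45037 probe sets of the table. Livers came from 10-week-old males after 4 h of fasting, and their RNA was measured on 120 Affymetrix mouse genome arrays. The 30 strains were MSM, 28 consomic strains and C57BL/6J (B6), which was the control. A consomic strain has the B6 background with 1 chromosome, part of a chromosome (C or T) or the mitochondrial DNA replaced by that of MSM, an inbred strain derived from wild Japanese mice. The labels name these strains after the part they carry, from B6-Chr1MSM to B6-ChrYMSM and B6-mtMSM, shortened below to Chr1, Chr7C, Chr7T, mt and so on. Chromosomes 2, 6, 12, 13 and X were represented by a C and a T strain only, chromosome 7 by a whole strain as well as both parts, and chromosome 10 by none. Each strain was represented by 2 males and each male by 2 arrays, which were averaged, so every strain mean below rests on n = 2.

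The proteasome is the protease that degrades ubiquitin-tagged proteins. Its 20S core is a barrel of alpha rings, which gate the entrance, and beta rings, which hold the proteolytic sites. The 19S cap has a ring of ATPases that unfold the substrate and thread it into the core, and non-ATPase subunits that bind and remove ubiquitin. Assembly chaperones bring the rings together, and activators such as the Psme proteins can take the place of the cap. In mammals many of the genes are induced together by the transcription factor NFE2L1 when proteasome activity falls, and loss of that response in mouse liver is known to cause accumulation of ubiquitinated proteins.

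Of the 95 probe sets, 73 passed the filter on low values (at least 2 of the 60 males above the median of the whole table), and these covered 43 genes. The other 22 were below that median in every male, and they were the only probe sets for Psma8 and Psmb11, known as testis and thymus forms. The tested members comprised 14 probe sets for the 20S alpha ring, 11 for the 20S beta ring, 9 for the 19S ATPases, 22 for the 19S non-ATPases, 9 for assembly chaperones and 6 for activators. The last 2 were Psmc3ip and Psme3ip1, which encode proteins named after a subunit and are not subunits themselves. The 4 ring and cap groups together are called 26S here, with 56 probe sets of 31 genes. Markers of hepatocytes were expressed, with Alb at a mean log2 signal of 14.8, close to the top of the table.

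Deposited values differed very little between arrays, and the size of a difference depended on the probe set. Values are therefore given as deviations from the mean of the 60 males in thousandths of a log2 unit (mlog2). Males of the same strain differed with a residual SD of 0.00514 mlog2 on the least and 0.960 mlog2 on the most variable tested member. A difference is thus no fold change, and only differences divided by that residual SD (scaled differences) are set beside each other. The 30 strains were fitted together with limma, and a probe set was called at a Benjamini-Hochberg adjusted p below 0.05 over all 22551 probe sets tested. A liver sample holds several cell types, so fewer cells of a type and less RNA per cell cannot be told apart. Likewise, the amount of a transcript and a base change of the MSM transcript under a probe cannot be told apart on these arrays.

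Between MSM and B6, a minority of the proteasome genes differed. Lower in MSM were the 19S ATPase Psmc5, the catalytic beta subunit Psmb6, 1 of 2 probe sets for the alpha subunit Psma3, 1 of 3 for the alpha subunit Psma5, 1 of 2 for the beta subunit Psmb4 and 1 of 3 for the cap subunit Psmd13. Higher in MSM were the cap subunit Psmd8, the catalytic beta subunit Psmb5 and 1 of 2 probe sets for the ATPase Psmc2. These are 6 probe sets lower (8.22% of 73, against 9.66% of all probe sets tested) and 3 higher (4.11%, against 13.1%). In either direction the share was 12.3% of members, against 22.8% of all probe sets tested. Before adjustment, 13 members had p below 0.05 (17.8%, against 35.5% of all). The split between higher and lower depends on the scaling of the arrays. When each male's values were centred on its median scaled deviation, 2 members were higher and 8 lower, beside 2003 higher and 2976 lower over all probe sets in place of 2957 and 2179. After quantile normalization, 45 members were higher and 3 lower, beside 18441 and 668 over all, and 3 of the 9 members called as deposited were among them. Quantile normalization sets a value by its rank within the array. At 26S members the median gap between probe sets adjacent in mean level was 0.398 mlog2, against a median residual SD of 0.0948 mlog2. The part of these gaps in the changed calls was not tested.

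Arranged by role, the 2 rings and the ATPases had negative median differences, and the activators a positive one. In deposited values, the median scaled difference between MSM and B6 was -0.90 for the alpha ring, -0.92 for the beta ring, -0.80 for the ATPases and -0.01 for the non-ATPases. It was 0.17 for the assembly chaperones and 1.26 for the activators, beside 0.53 for all probe sets tested. Of the 56 26S probe sets, 39.3% had a positive difference, against 60% of all. The activator set comprises Psme1, Psme3 and Psme4, and 5 of its 6 probe sets had a positive difference but limma called none. The positive ones were the 3 for Psme4, which correlated at r = 0.799 to 0.938 over 60 males, and the 2 for Psme3. That for Psme1 was negative. The 26S median was -0.52 as deposited and -1.07 after scaled centring, and it changed sign to 2.59 after quantile normalization, where the median of all probe sets stood at 5.92. It lay below the median of all probe sets under each of these scalings.

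**Figure D1:**
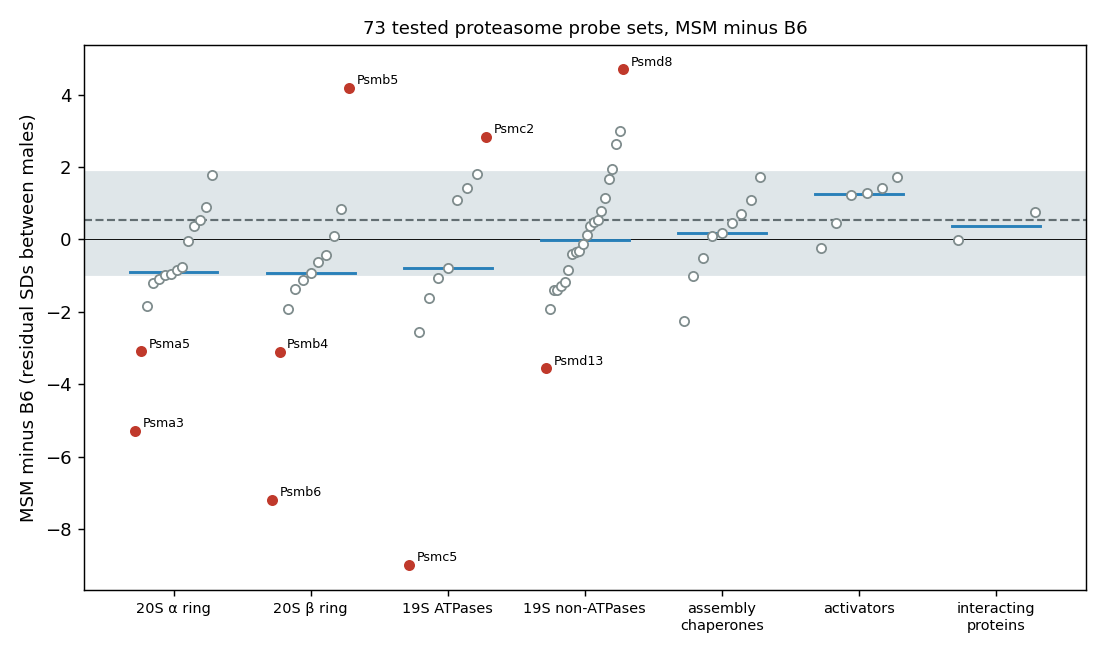
Difference between MSM and B6 for the 73 tested proteasome probe sets, in residual SDs (vertical axis), by role (horizontal axis); red points were called, blue bars are group medians, and the dashed line and grey band are the median and quartiles of all probe sets tested. Most members lie within the band, with Psmc5 and Psmb6 lowest and Psmd8 highest as deposited; after quantile normalization the signs of Psmc5, Psmd8, Psma5 and Psmc2 were reversed.

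Psmc5 and Psmb6 lie on chromosome 11, and both differed in MSM and in the strain that carries only chromosome 11 from MSM. Psmc5 encodes an ATPase of the 19S base, and Psmb6 the beta subunit with the caspase-like site. Each is represented by a single probe set. Their promoter sequences, the 250 bases before the RefSeq start in GRCm38.p6, are shown because both genes were called against B6 in MSM and in Chr11 as deposited. The window of Psmc5 is chr11:106255935-106256184 and that of Psmb6 chr11:70525107-70525356, both on the plus strand. Capitals mark matches to TGACNNNGC, the core of the element bound by NFE2L1 with a small Maf protein, or to CCAAT, on either strand.
Psmc5: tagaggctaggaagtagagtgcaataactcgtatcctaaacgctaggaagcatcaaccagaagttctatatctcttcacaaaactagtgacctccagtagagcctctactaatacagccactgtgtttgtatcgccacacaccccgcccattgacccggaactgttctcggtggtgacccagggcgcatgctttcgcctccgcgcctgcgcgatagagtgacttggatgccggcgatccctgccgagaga
Psmb6: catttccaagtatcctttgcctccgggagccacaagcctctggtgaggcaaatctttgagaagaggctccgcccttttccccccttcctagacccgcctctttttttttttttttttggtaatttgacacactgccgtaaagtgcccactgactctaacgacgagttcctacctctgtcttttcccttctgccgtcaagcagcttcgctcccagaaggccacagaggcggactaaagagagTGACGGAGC
The Psmb6 window held 1 match to TGACNNNGC, whose first base lies 9 bases before the start, and none to CCAAT, while the Psmc5 window held neither. Of the 31 26S genes, 25 had a window in the table. TGACNNNGC was found for 4 of them, Psmb5, Psmb6, Psmc6 and Psmd12 (16%, against 11.5% of all genes with a window). CCAAT was found for 10 (40%, against 37.5%).

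Psmc5 stood at -2.39 and -2.37 mlog2 in the MSM males and at -3.33 and -2.89 mlog2 in the Chr11 males, against 0.0455 and 0.234 mlog2 in the B6 males. The next lowest of the 60 males stood at -0.587 mlog2, so the 4 males with chromosome 11 from MSM were separate from all others. The difference from B6 was -2.52 ± 0.277 mlog2 in MSM (SE; limma adjusted p = 3.11e-08) and -3.25 ± 0.277 mlog2 in Chr11 (adjusted p = 1.36e-09). After quantile normalization the difference in MSM was 0.0816 mlog2, of the opposite sign and not called (adjusted p = 0.939), whereas that in Chr11 remained negative (-2.52 mlog2, adjusted p = 0.137). Against the strains without any part of chromosome 11 from MSM, Chr11 was lower by the same test (-3.31 ± 0.200 mlog2, adjusted p = 1.54e-13) and remained so after quantile normalization (adjusted p = 0.00302). Chr11 and MSM, which share the B6 males as control, differed from each other by -0.730 ± 0.277 mlog2 (limma adjusted p = 0.0587).

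Psmb6 stood at -1.43 and -1.59 mlog2 in the MSM males and at -1.70 and -1.12 mlog2 in the Chr11 males, against 0.116 and -0.106 mlog2 in the B6 males. These 4 males were again the lowest of the 60, and the next stood at -0.415 mlog2. The difference from B6 was -1.51 ± 0.208 mlog2 in MSM (limma adjusted p = 1.88e-06) and -1.42 ± 0.208 mlog2 in Chr11 (adjusted p = 9.4e-05). Against the strains without that chromosome from MSM, Chr11 was lower by -1.51 ± 0.150 mlog2 (limma adjusted p = 2.66e-08), and none of those 56 males reached the Chr11 values. All of these kept their sign after quantile normalization, where MSM remained called (-2.96 mlog2) and Chr11 did not (limma adjusted p = 0.365 against B6 and 0.432 against the strains without it). With the first array of each male alone, the Chr11 call was lost as well (adjusted p = 0.324). Chr11 and MSM differed from each other by 0.0982 ± 0.208 mlog2 (adjusted p = 0.783, 95% interval -0.327 to 0.524 mlog2). Of the 10 tested genes beside Psmb6 in chromosome order, on either side of it, 1 was called in Chr11 against the strains without it, the mediator subunit Med11. Of the 10 beside Psmc5, 1 was called, Limd2. Both were lower. A gene was counted if any of its probe sets was called. Over all pairs of a probe set and a strain with its chromosome, 10.2% were called in this way.

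Psma8, the gene for the alpha subunit known from testis, lies on chromosome 18 and was below the filter in every male, yet it had the widest range of values among all members. It stood at 44.0 and 36.7 mlog2 in the MSM males and at 36.5 and 40.2 mlog2 in the Chr18 males, against -4.78 and -5.81 mlog2 in the B6 males. The 4 males with chromosome 18 from MSM lay apart from all others, of which the highest stood at 5.76 mlog2. The gene was singled out after its values were seen, and it was tested in a fit of all 45037 probe sets with no filter. There the difference from B6 was 45.7 ± 2.04 mlog2 in MSM (limma adjusted p = 1.64e-17) and 43.6 ± 2.04 mlog2 in Chr18 (adjusted p = 2.66e-15). Chr18 and MSM differed from each other by -2.02 ± 2.04 mlog2 (adjusted p = 0.505, in the same fit). With no filter, 10.4% of all probe sets were higher and 6.11% lower in MSM, and 0.204% were called in Chr18 against B6. Sign and call in MSM and in Chr18 against B6 were the same after quantile normalization or scaled centring, with either array alone and without any 1 male of these 3 strains. Its mean log2 signal of 7.16 lay below the median of all values (7.41663), and whether the probe set measured Psma8 RNA at that signal was not tested.

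**Figure D2:**
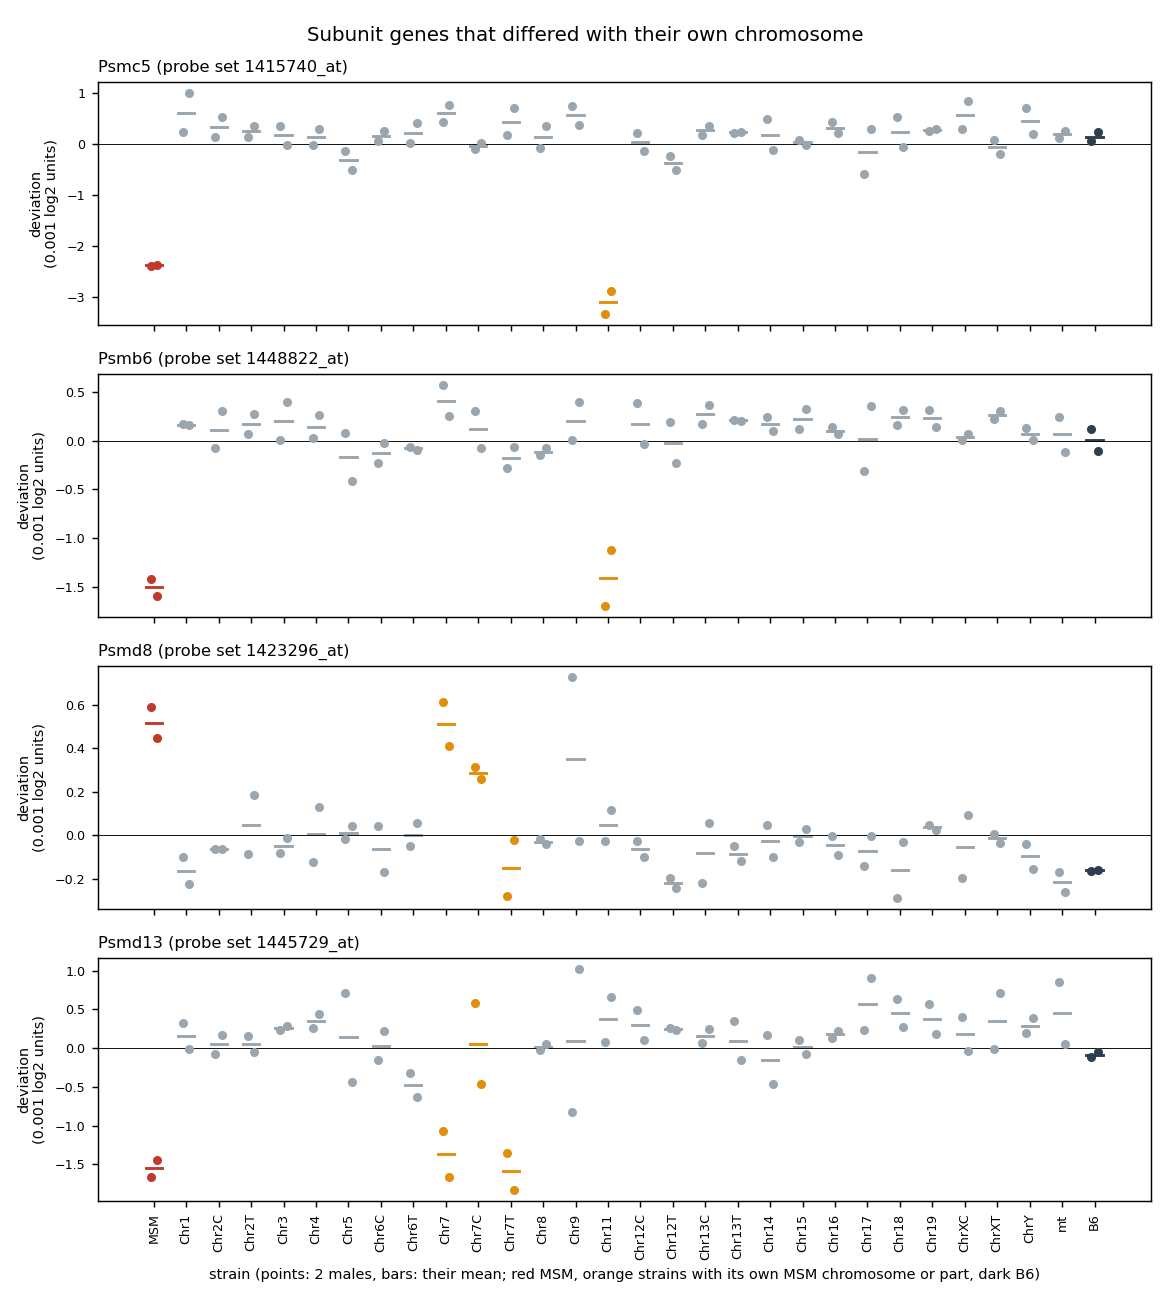
Deviation of Psmc5, Psmb6, Psmd8 and Psmd13 (probe set 1445729_at) from the mean of 60 males, in thousandths of a log2 unit (vertical axis), in each strain (horizontal axis); points are the 2 males and bars their mean. In these deposited values MSM and Chr11 lie apart for Psmc5 and Psmb6, MSM and Chr7 lie high for Psmd8 beside male 1 of Chr9 at 0.727, and MSM, Chr7 and Chr7T lie low for Psmd13; after quantile normalization the differences of MSM from B6 for Psmc5 and Psmd8 had the opposite sign.

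Psmd8 and Psmd13 lie on chromosome 7 and encode non-ATPase subunits of the 19S lid. Chromosome 7 is the one with 3 strains, the whole chromosome and its C and T parts, so the positions of the genes are shown with their promoters. The Psmd8 window is chr7:29180674-29180923 on the minus strand, and that of Psmd13 is chr7:140882144-140882393 on the plus strand, both in GRCm38.p6. Neither held a match to either motif.
Psmd8: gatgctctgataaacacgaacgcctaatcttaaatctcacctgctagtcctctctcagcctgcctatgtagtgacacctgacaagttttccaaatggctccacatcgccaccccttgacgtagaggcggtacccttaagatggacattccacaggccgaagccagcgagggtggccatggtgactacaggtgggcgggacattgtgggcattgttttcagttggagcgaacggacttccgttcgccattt
Psmd13: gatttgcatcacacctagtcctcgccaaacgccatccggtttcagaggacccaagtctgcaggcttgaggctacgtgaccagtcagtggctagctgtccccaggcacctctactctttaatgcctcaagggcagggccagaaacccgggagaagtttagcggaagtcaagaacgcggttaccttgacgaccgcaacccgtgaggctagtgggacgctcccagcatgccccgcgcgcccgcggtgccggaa
Psmd8 stood at 0.316 and 0.257 mlog2 in the Chr7C males and at -0.281 and -0.0197 mlog2 in the Chr7T males. It stood at 0.590 and 0.449 mlog2 in the MSM males and at 0.612 and 0.411 mlog2 in the Chr7 males, against -0.163 and -0.158 mlog2 in the B6 males. MSM and Chr7 were thus above B6 without overlap, with both Chr7C males between them and the Chr7T males near B6.

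As deposited, the difference of Psmd8 from B6 was 0.680 ± 0.143 mlog2 in MSM (SE; limma adjusted p = 0.000709), and after quantile normalization it was -1.02 mlog2 (adjusted p = 0.168). In Chr7 it was 0.672 ± 0.143 mlog2 (limma adjusted p = 0.0115), which became 0 after quantile normalization (adjusted p = 1). In Chr7C it was 0.447 ± 0.143 mlog2 and was not called (adjusted p = 0.310), and in Chr7T it was 0.00986 ± 0.143 mlog2 (adjusted p = 0.991). Against the strains without any of chromosome 7 from MSM, Chr7 was called (0.556 ± 0.103 mlog2, limma adjusted p = 0.00147). That call was lost without male 1 of Chr7 (adjusted p = 0.0550) and after quantile normalization (0.658). The difference between Chr7C and Chr7T was 0.437 ± 0.143 mlog2 and missed the threshold after adjustment (limma adjusted p = 0.371). The call of Chr7 against B6 was lost without either B6 male (adjusted p = 0.133 and 0.114), without male 1 of Chr7 (0.0517) and with the first array of each male alone (0.0866).

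Psmd13 differed on 1 of its 3 tested probe sets. On probe set 1445729_at the Chr7C males stood apart from each other, at 0.582 and -0.469 mlog2. It stood at -1.66 and -1.45 mlog2 in the MSM males, at -1.07 and -1.67 mlog2 in the Chr7 males and at -1.35 and -1.83 mlog2 in the Chr7T males, against -0.118 and -0.0468 mlog2 in the B6 males. MSM, Chr7 and Chr7T were the 6 lowest males of the 60. The difference from B6 was -1.47 ± 0.409 mlog2 in MSM (limma adjusted p = 0.00888). It was not called after quantile normalization (-0.13 mlog2, adjusted p = 0.799), with the first array of each male alone (0.103), or without B6 male 2 or MSM male 1 (0.0556 and 0.0705). Against the strains without any of chromosome 7 from MSM it was -1.54 ± 0.295 mlog2 in Chr7 (limma adjusted p = 0.00226), -1.76 ± 0.295 mlog2 in Chr7T (adjusted p = 0.00069) and -0.115 ± 0.295 mlog2 in Chr7C (adjusted p = 0.999). Chr7C and Chr7T differed by 1.65 ± 0.409 mlog2 (limma adjusted p = 0.0729). Leaving out male 2 of Chr7 or male 2 of Chr7T gave an adjusted p of 0.241 and 0.0616 for those strains, and the first arrays alone gave 0.126 for Chr7.

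The other Psmd13 probe sets, 1437220_x_at and 1422459_a_at, correlated with each other (r = 0.904 over 60 males) and not with 1445729_at (r = -0.116 and -0.146). In MSM against B6 they differed by 0.0361 ± 0.0455 and 0.0424 ± 0.0890 mlog2, and neither was called (limma adjusted p = 0.603 and 0.766). In Chr7T against B6 they differed by -0.0593 ± 0.0455 and -0.0663 ± 0.0890 mlog2 (adjusted p = 0.765 and 0.886). Among the 10 tested genes nearest to Psmd13, 4 were called in Chr7T against the strains without it. These were Bet1l and Pgghg, which were higher, and the mitochondrial deacetylase Sirt3 and the inflammasome gene Nlrp6, which were lower. Among the 10 nearest to Psmd8, 1 was called in Chr7 against the strains without it, the potassium channel Kcnk6, which was higher. Beside these counts stand 10.2% called over all pairs of a probe set and a strain with its chromosome. A gene was counted if any of its probe sets was called, and Bet1l has 4.

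On chromosome 3, the beta subunit gene Psmb4 was called in MSM against B6 and in Chr3 against the strains without it. Probe set 1451205_at stood at -0.0692 and -0.155 mlog2 in the MSM males and at -0.175 and -0.0879 mlog2 in the Chr3 males, against 0.0601 and -0.0241 mlog2 in the B6 males. The Chr3 males lay below all 56 males of strains without that chromosome from MSM. As deposited, Chr3 was lower than those strains by the limma test (-0.140 ± 0.0300 mlog2, adjusted p = 0.00976), but after quantile normalization the difference was 0.359 mlog2, of the opposite sign (adjusted p = 0.850). It was also not called with the second array of each male alone (adjusted p = 0.352) or without male 1 of Chr3 (0.540). In MSM the difference from B6 was -0.130 ± 0.0417 mlog2 (adjusted p = 0.0227), and it missed the threshold when B6 male 1 or MSM male 2 was left out (adjusted p = 0.275 and 0.274), with the first arrays alone (0.464) and after quantile normalization, where it was 0 (adjusted p = 1). The second Psmb4 probe set, 1438984_x_at, correlated with the first (r = 0.637 over 60 males) and differed from B6 by -0.268 ± 0.194 mlog2 in MSM and by -0.397 ± 0.194 mlog2 in Chr3, neither called (limma adjusted p = 0.333 and 0.586).

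Psma5, an alpha subunit gene on the same chromosome, was called in MSM, where the limit for a call was lower, and not in Chr3. Probe set 1434356_a_at stood at -0.200 and -0.256 mlog2 in the MSM males and at -0.175 and -0.224 mlog2 in the Chr3 males, against 0.140 and 0.129 mlog2 in the B6 males. The B6 males were above both other strains. The difference from B6 was -0.362 ± 0.116 mlog2 in MSM (limma adjusted p = 0.0229) and 1.30 mlog2, of the opposite sign, after quantile normalization (adjusted p = 0.0653). In Chr3 it was -0.334 ± 0.116 mlog2 as deposited and was not called (adjusted p = 0.299). The other 2 tested Psma5 probe sets were not called in MSM (adjusted p = 0.185 and 0.563). The MSM call was lost with either array alone and when any of the 4 MSM or B6 males was left out, with adjusted p values of up to 0.133.

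On chromosome 5, both probe sets for Psmd9, a chaperone of the 19S base, were lower in Chr5 than in the strains without that chromosome from MSM. Probe set 1423386_at stood at -1.15 and -0.848 mlog2 in the Chr5 males and at -0.697 and -0.00220 mlog2 in the MSM males, against -0.254 and -0.506 mlog2 in the B6 males. Probe set 1423387_at stood at -0.162 and -0.197 mlog2 in the Chr5 males and at -0.0555 and 0.0189 mlog2 in the MSM males, against 0.0332 and -0.00700 mlog2 in the B6 males. On both, the 2 Chr5 males were the lowest of the 60, and MSM was not called against B6 (adjusted p = 0.959 and 0.742). The differences of Chr5 from the strains without it were -1.05 ± 0.239 and -0.186 ± 0.0433 mlog2 (limma adjusted p = 0.0146 and 0.0168). Each call was lost without either Chr5 male (adjusted p = 0.0921 to 0.381), with the first array of each male alone (0.462 and 0.138) and after quantile normalization (0.378 and 0.0731), where the sign was kept.

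Also on chromosome 5, the mean difference of the ATPase gene Psmc2 from B6 was positive in MSM and negative in Chr5, whose males stood apart. Probe set 1426611_at stood at 0.388 and 0.207 mlog2 in the MSM males and at 0.0377 and -0.284 mlog2 in the Chr5 males, against 0.0907 and 0.0290 mlog2 in the B6 males. The MSM males were the highest of the 60, and Chr5 male 2 was the lowest, while Chr5 male 1 lay between the B6 males. The difference from B6 was 0.238 ± 0.0833 mlog2 in MSM (limma adjusted p = 0.0371), but it was -1.68 mlog2 after quantile normalization (adjusted p = 0.211) and was not called after scaled centring (0.0977), with either array alone, or without B6 male 1, B6 male 2 or MSM male 1. In Chr5 it was -0.183 ± 0.0833 mlog2 and was not called (limma adjusted p = 0.309). Chr5 and MSM differed from each other by -0.421 ± 0.0833 mlog2 (adjusted p = 0.0003).

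Psma3 and Psmb5 were called in MSM and not in the strains that carry their chromosome. Psma3, an alpha subunit gene on chromosome 12, stood on probe set 1448442_a_at at 0.0572 and -0.227 mlog2 in the Chr12C males and at -0.0751 and -0.344 mlog2 in the Chr12T males. It stood at -0.674 and -0.705 mlog2 in the MSM males, against 0.0497 and -0.0586 mlog2 in the B6 males. The MSM males were the lowest of the 60 and the next stood at -0.344 mlog2. The difference between MSM and B6 was -0.685 ± 0.128 mlog2 (limma adjusted p = 0.000178), and it kept its sign and its call under every alternative that was run for it, at -1.04 mlog2 after quantile normalization. The strain means differed from MSM by 0.604 ± 0.128 mlog2 in Chr12C (limma adjusted p = 0.000815) and by 0.480 ± 0.128 mlog2 in Chr12T (adjusted p = 0.00691). The other tested Psma3 probe set, 1441707_at, did not correlate with this one (r = 0.029 over 60 males) and differed by 0.0335 ± 0.0897 mlog2 between MSM and B6 (adjusted p = 0.818).

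Psmb5, the gene for the beta subunit with the chymotrypsin-like site, lies on chromosome 14 and is represented by a single probe set. It stood at 0.144 and 0.117 mlog2 in the MSM males and at 0.0937 and -0.0645 mlog2 in the Chr14 males, against -0.0845 and -0.0554 mlog2 in the B6 males. The MSM males were the highest of the 60, and the Chr14 males lay on both sides of the mean. The difference between MSM and B6 was 0.200 ± 0.0473 mlog2 (limma adjusted p = 0.00223), with its sign and its call kept under every alternative run for it, although quantile normalization, which raised most probe sets in MSM, gave 3.87 mlog2. In Chr14 it was 0.0846 ± 0.0473 mlog2 and was not called (adjusted p = 0.752). Chr14 and MSM differed by -0.116 ± 0.0473 mlog2 (adjusted p = 0.0652). Of the 3 catalytic beta genes, Psmb7 differed by -0.0293 ± 0.0461 mlog2 between MSM and B6 and was not called (adjusted p = 0.683).

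**Figure D3:**
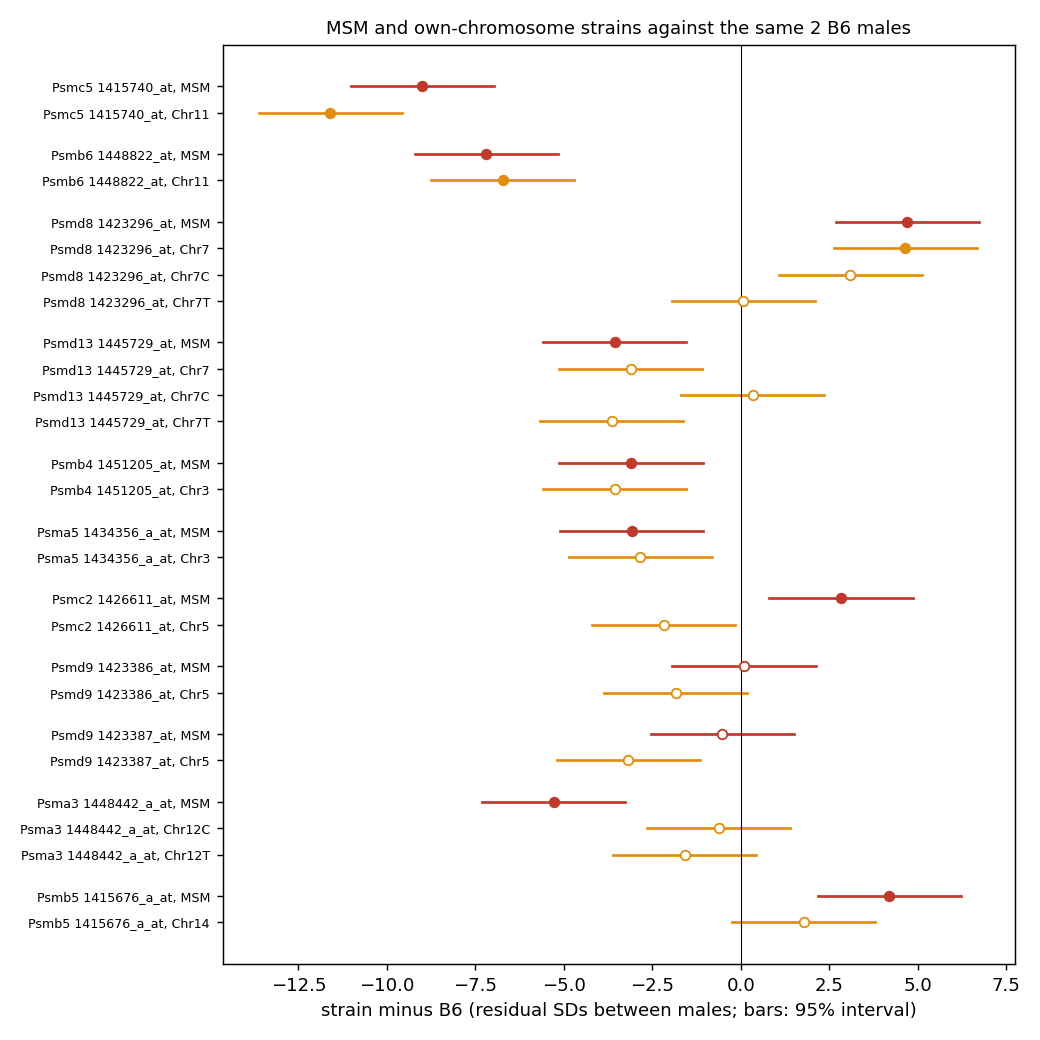
Difference from B6, in residual SDs between males of a strain with its 95% interval (horizontal axis), for each called member in MSM (red) and in the strains with its own chromosome or part from MSM (orange); filled points were called against B6, and all rows share the same B6 males. As deposited, Psmc5, Psmb6 and Psmd8 were called against B6 in both MSM and a strain with their chromosome, Psmd13, Psmb4, Psma5, Psmc2, Psma3 and Psmb5 in MSM only, and Psmd9 in neither; quantile normalization reversed the sign for Psmc5, Psmd8, Psma5 and Psmc2 in MSM.

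Over the whole panel, few tested proteasome probe sets were called with a substituted chromosome, and the limit for a call was not the same as in MSM. With the adjustment made within each strain, a difference from B6 had to reach 2.67 residual SDs in MSM and a median of 5.42 in the 28 consomic strains, so a call in MSM alone does not show that the strains differ. Pairing each tested member with the strains that carry its chromosome gave 104 pairs, and 3 were called against B6, Psmc5 and Psmb6 in Chr11 and Psmd8 in Chr7 (2.88%, against 5.5% of all such pairs). Against the strains without that chromosome, whose mean has a smaller error than that of 2 B6 males, 8 were called (7.69%, against 10.2% of all such pairs). On other chromosomes, limma called none of 1940 pairs of a member and a strain against B6 (background 0.104%), and 79 had an unadjusted p below 0.05 (4.07%, against 7.43% of all). With DNA from MSM only on another chromosome, 1 of 1867 pairs was called against the strains without it (background 0.292%), Psmd8 in Chr9. Psmd8 stood at 0.727 mlog2 in male 1 of Chr9 and at -0.0285 mlog2 in male 2. Male 1 also stood apart on cell type markers. In SDs over the 60 males, it had the highest median of all males for stellate cell (2.89) and endothelial markers (1.42) and the lowest for lymphocyte (-1.84), erythroid (-1.66) and pancreas markers (-1.69). Its medians were 2.03 for Kupffer cell and 1.72 for cholangiocyte markers, and their part in the Psmd8 value was not tested. The 2 arrays of male 1 gave 0.798 and 0.656 mlog2, and without that male the difference was 0.00250 mlog2 in place of 0.380 ± 0.103 mlog2 (limma adjusted p = 1 without and 0.0313 with that male). After quantile normalization it was -1.04 mlog2, of the opposite sign. Between the C and T strains of their chromosome, none of 23 pairs was called by limma (background 3.31%), and 2 had an unadjusted p below 0.05 (8.7%, against 15.8% of all), namely Psmd13 and Psmd8.

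Set directly against MSM, the strains with a member's own chromosome differed in 11 of 104 pairs (10.6%, against 17.4% of all such pairs). A test over all 30 strains called 7 of the 73 tested members (9.59%, against 15.5% of all). These were Psmc5, Psmb6, Psmd8, Psmd13, Psma3 and Psmb4, named above, and Psmd3, a lid subunit gene on chromosome 11. Psmd3 differed by 0.101 ± 0.0379 mlog2 between MSM and B6 and was just outside the threshold there (limma adjusted p = 0.0532). Against the mean of the other 29 strains, MSM was higher for 10 members and lower for 13 (background 24.7% and 16.3%). All 3 tested probe sets for the activator Psme4 were among the higher, by 0.685 to 1.36 mlog2 (limma adjusted p = 0.0015 to 0.0324). None of the 3 was called in MSM against B6 (limma adjusted p = 0.211 to 0.781), and B6 itself ranked 28 of the 30 strains from the lowest on each.

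Several probe sets of a gene did not always move together. Over the 60 males, the 3 tested Psme4 probe sets correlated with one another at r = 0.799 to 0.938, the 2 for the chaperone gene Psmg2 at 0.864 and the 2 for Psmb3 at 0.752. The median over all pairs of probe sets for the same gene was 0.370. The lowest were found for Psmd11, a lid subunit gene with 6 tested probe sets (-0.254 to 0.635), and for Psmd13. Psmc5, Psmb6, Psmd8 and Psmb5 have no second tested probe set to set beside the first.

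Pairs of 26S members correlated more than the median pair of all probe sets. The median correlation between pairs of the 56 probe sets was 0.182 over the 60 males and 0.161 over the 30 strain means, beside -0.002 and 0.003 for all pairs tested. The ATPases had the highest median over males (0.326), followed by the beta ring (0.264), the alpha ring (0.229) and the non-ATPases (0.098). With strain means removed the 26S median was 0.223. It was 0.270 for the difference between the 2 arrays of the same male, beside -0.008 for all pairs. The arrays of a male share the animal and the strain, so joint variation was also present where neither differed. These correlations share arrays and are given as a description.

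**Figure D4:**
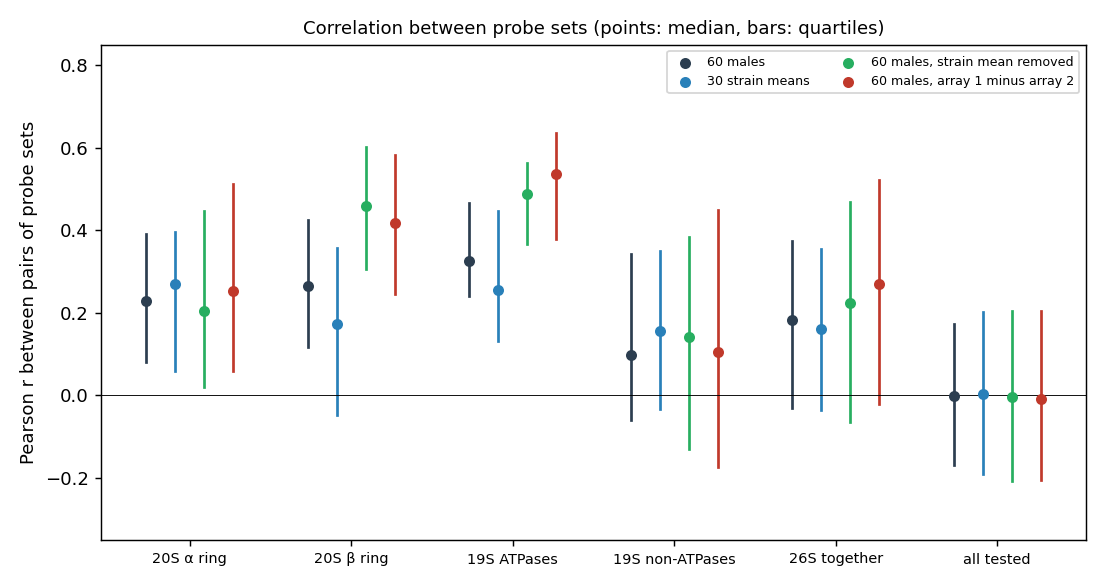
Pearson correlation between pairs of probe sets (vertical axis; points are medians and bars quartiles) for the groups of 26S probe sets and for all probe sets tested (horizontal axis), over males, strain means, males with the strain mean removed, and the difference between the 2 arrays of a male. The ATPases lie at 0.326 over males and 0.536 for array differences, whereas all probe sets lie near 0 throughout.

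Of single probe sets, 1417771_a_at for Psmc6 followed the other 26S members most closely (r = 0.813 over 60 males), while the second Psmc6 probe set stood at 0.333 and correlated with the first at 0.35. Next came Psmd12 (0.770) and the deubiquitinase Psmd14 (0.750). Psmd2, a scaffold subunit of the cap (-0.193), and probe set 1451725_a_at for the ubiquitin receptor Psmd4 (-0.405) went against them. To set strains side by side, each probe set was scaled to its SD over the 60 males and the median of the 56 was taken for each male. The medians of the 20S and the 19S probe sets correlated at r = 0.706 over males. The lowest male was male 1 of Chr17 at -1.33, whose 2 arrays gave -1.39 and -1.02, while male 2 of that strain stood at 0.397. The highest was male 1 of Chr7 at 0.905, and male 2 stood at 0.570.

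By strain mean, MSM was lowest at -0.554, close to Chr12T at -0.539 and Chr17 at -0.466, and Chr7 was highest at 0.737, followed by Chr1 at 0.628 and Chr9 at 0.502, with the male of unusual marker levels at 0.540 and the other at 0.464. B6 stood at -0.0625. By strain means of single members, Chr7 was highest for 17 of the 73, MSM highest for 12 and lowest for another 12, Chr5 lowest for 15, and B6 was neither for any. These counts were not set against the same counts over all probe sets tested. In Chr5, male 2 was the lowest male for 7 of the 56 and male 1 for 2. Male 2 also had medians of 2.06 for Kupffer cell and 1.26 for endothelial markers, against -0.389 and 0.204 in male 1. On the median of the 56, male 2 stood at -0.7545 and male 1 at 0.0614. The SD between males of the same strain was 0.452 and that of the 30 strain means 0.329. A mean of 2 males varies less than a single male, so these SDs cannot be set directly against each other. Whether the strains differed on this measure was not tested. The 2 arrays of a male correlated at only r = 0.220 on this measure. Against B6, 47 of the 56 probe sets had a positive difference in Chr7 (83.9%, against 51.3% of all probe sets). The median scaled difference there was 1.01 beside 0.0455 for all, and Psmd8 was the only one called (background 1.32%). In Chr7C and Chr7T, 50% and 60.7% were positive (52.2% and 51.5% of all), with medians of -0.01 and 0.19. In Chr1 and Chr9, 45 and 46 had a positive difference (80.4% and 82.1%, against 50.8% and 48.9% of all). Their medians were 0.74 and 0.69, beside 0.0194 and -0.0437 for all, and limma called none (background 0.395% and 0.945%). In Chr13C and Chr13T, 76.8% and 75% were positive (49.1% and 49.7% of all). All of these differences share the same B6 males. In Chr7 the alpha ring (1.01), beta ring (1.04), ATPases (0.95), non-ATPases (1.09) and chaperones (0.92) had similar medians, and the activators had -0.92.

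**Figure D5:**
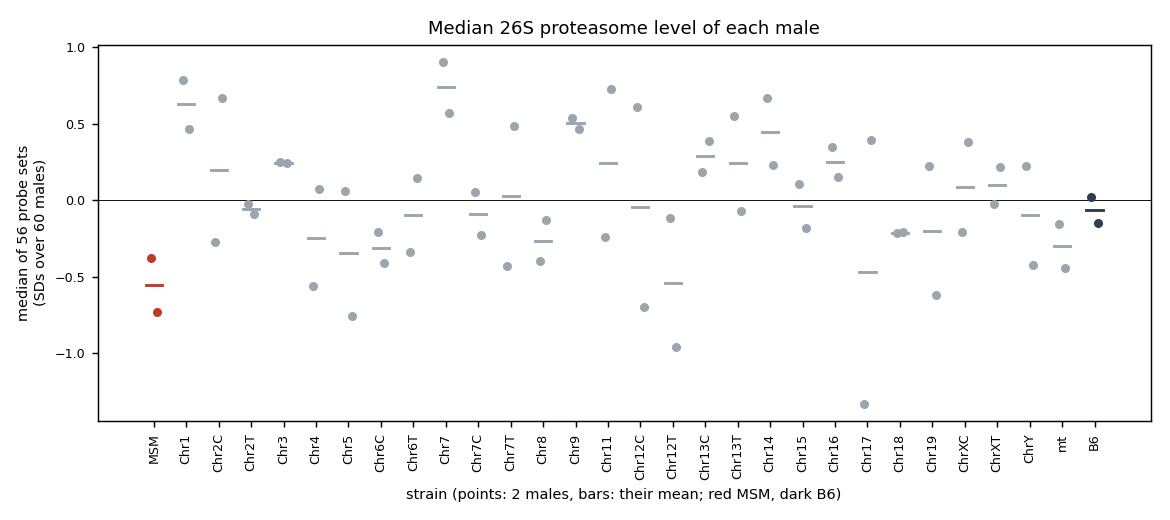
Median over the 56 tested 26S probe sets, each in SDs over the 60 males (vertical axis), for each strain (horizontal axis); points are the 2 males and bars their mean. Male 1 of Chr17 lies lowest at -1.33 and male 1 of Chr7 highest at 0.905 in deposited values, and the males of a strain differ by a median of 0.345.

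The 10 genes outside the list whose strain means were most like the 26S median over the 30 strains were taken by rank, with no test of what they share. Ufd1 (r = 0.803) and Nsfl1c (0.775) encode cofactors of the ubiquitin-dependent unfoldase p97, and Txnl1 (0.734) a thioredoxin-like protein bound to the 19S cap. Orc6 (0.744), Pcna (0.727) and Gins4 (0.717) are genes of DNA replication. Pbdc1 (0.726), 1110059G10Rik (0.721), the Fc receptor gene Fcgr3 (0.713) and the splicing gene Bud31 (0.709) completed the first 10. Among probe sets of other genes, 95% had an r below 0.432. The same genes correlated with the 26S members at r = 0.619 to 0.907 in the differences between arrays of the same male.

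Genes that work beside the proteasome were counted between MSM and B6 in the same way, and the lists were chosen with results of these data known. Of 35 probe sets for proteasome partners, 6 were higher in MSM and 1 lower. Among the higher was 1 probe set each for the substrate shuttles Ubqln1 (0.678 ± 0.183 mlog2, limma adjusted p = 0.00694), Ubqln4 (0.180 ± 0.0491 mlog2, adjusted p = 0.00766) and Rad23b (0.610 ± 0.182 mlog2, adjusted p = 0.0143). The other tested probe sets for these genes were not called (adjusted p = 0.617 for Ubqln1, 0.96 for Ubqln4 and 0.158 to 0.949 for Rad23b). Also higher was 1 of 3 probe sets for the inhibitor Psmf1 (0.315 ± 0.0901 mlog2, adjusted p = 0.0108). The other 2 for Psmf1 differed by -0.169 ± 0.0712 and -0.139 ± 0.0814 mlog2 and were not called (adjusted p = 0.0848 and 0.224). Ubqln2 was split, with 1 probe set higher and 1 lower. Of 15 probe sets for ubiquitin and p97 genes, 4 were higher and none lower. These were 2 for the chain elongation factor Ube4b, 1 for the ubiquitin-activating enzyme Uba6 and 1 for Faf1. Of 16 for transcription factors of proteasome genes and their regulators, 1 was higher, the small Maf gene Maff (6.27 ± 1.97 mlog2, limma adjusted p = 0.0201). Of 25 for heat shock and proteotoxic stress, 2 were lower, both of Hspb1 (-75.5 ± 19 and -74.7 ± 19.3 mlog2, limma adjusted p = 0.00392 and 0.00503). The immunoproteasome genes Psmb8, Psmb9 and Psmb10 have 4 tested probe sets, and limma called none. Against these counts stand 13.1% higher and 9.66% lower over all probe sets.

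Some probe sets for markers of cell types were called between MSM and B6, beside 13.1% higher and 9.66% lower over all probe sets tested. Of 9 probe sets for Kupffer cell markers, 4 were lower in MSM, 2 for Csf1r and 1 each for Clec4f and Vsig4. Their median over the list, in SDs over the 60 males, was -2.47 and -2.55 in the MSM males, against -0.523 and -0.366 in the B6 males. Of 16 for hepatocyte markers, 2 were lower, 1 each for Ttr and Fgb. Of the endothelial markers 1 of 8 probe sets was higher and 1 lower, of the stellate cell markers 1 of 6 was lower, of the erythroid markers 1 of 2 was lower, and of the cholangiocyte markers 1 of 3 was higher. None of 6 for pancreas and none of 2 for lymphocytes was called by limma. Over the 60 males, the median of the pancreas markers correlated with the 26S median at r = -0.429, that of the Kupffer cell markers at 0.302 and that of the lymphocyte markers at -0.206. The other 5 marker lists lay between -0.07 and 0.097. These points share arrays, and the part of any of these cells in the proteasome differences was not tested. In Chr11 the 9 Kupffer cell probe sets had a median scaled difference from B6 of 1.16, and limma called none (background 0.723%). Whether these cells bear on the Psmc5 and Psmb6 values was not tested.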

How the data were processed

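Liver RNA of 60 males, 2 arrays each, was measured on Affymetrix arrays. The authors deposited 1 log2 signal per probe set and array, as judged from the values, which ran from 6.344 to 14.82 with array medians of 7.4158 to 7.4168. Not given in the sources used here: the summary method, normalization, log base and genome build. A log2 scale is assumed. Arrays have no read depth, and the number of arrays limits the precision. The 2 arrays of a male were averaged, taking the animal number in the labels to name the male. A mean per strain was fitted with limma 3.58.1 in R 4.3.3 (30 residual df, prior df 0.576), and p-values measure the spread between these males, which may be technical. Of 45037 probe sets, 22551 with at least 2 males above the table's median (7.41663) were tested, with Benjamini-Hochberg adjustment within each contrast. The 28 contrasts of consomic strains with B6 were adjusted separately. The fit was tested on simulated data for MSM against B6 (22551 probe sets), where 2% of 50 changes of 2 residual SDs, 40% of those of 4, 96% of those of 6 and 100% of those of 8 were called, with 2 unchanged probe sets called. Far fewer probe sets were changed there than the 5136 called in MSM against B6 in the data, where 2.67 residual SDs sufficed. The simulated shares therefore do not give the share detected in MSM. Symbols came from the platform annotation (34945 probe sets with 1 symbol, 932 with several, 9160 with none), and chromosomes and promoters from RefSeq tables of GRCm38.p6. The probe set shared by Psme2b and Psme2 names 2 genes and was set aside. The members and the gene lists were chosen with earlier results of these data known. Genes named individually were all members called in MSM, in a strain with their own chromosome or elsewhere, the members called between C and T strains, up to 4 called genes per list in MSM and the 10 genes whose strain means were most like the 26S median; others were chosen after their values were seen. Alternatives were quantile normalization, no filter, 1 probe set per gene, single arrays, trended and robust moderation, other controls, leaving out each male and, added after seeing the data, scaled centring and the fits for Psma8.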

Additional observations from a re-analysis of the deposited data

Results flagged for a closer look

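The proteasome probe sets below differed between MSM and a strain that carries the member's chromosome, or a part of it, from MSM, so that the effects of the 2 genotypes against the same B6 males differed by a test of the difference itself (limma). These are all 11 such pairs among 104 (10.6%, against 17.4% of all probe sets on substituted chromosomes).

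Psma3 probe set 1448442_a_at differed by 0.604 mlog2 in Chr12C minus MSM and by 0.480 mlog2 in Chr12T minus MSM. Psmc2 differed by -0.421 mlog2 on 1426611_at and by -0.259 mlog2 on 1435859_x_at in Chr5 minus MSM, with adjusted p of 0.0003 and 0.0429. On the second of these, MSM male 2 and Chr5 male 1 both stood at 0.0406 mlog2, so the groups touched. Psmd9 probe set 1423387_at differed by -0.161 mlog2 in Chr5 minus MSM (limma adjusted p = 0.0400). Psmd13 probe set 1445729_at differed by 1.61 mlog2 in Chr7C minus MSM (adjusted p = 0.00419), and Psmd8 by -0.670 mlog2 in Chr7T minus MSM (adjusted p = 0.00084). The C and T strains carry only a part of the chromosome each.

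Psme4, an activator gene on chromosome 11, stood at -0.0707 and -0.148 mlog2 on 1426823_s_at in the Chr11 males, against 0.633 and 0.695 mlog2 in the MSM males, with B6 at 0.333 and 0.186 mlog2. B6 lay between them, but by strain mean B6 ranked 28 and MSM 30 of the 30 strains from the lowest. Most other strains thus lay below B6, as Chr11 did. Chr11 was called neither against B6 nor against the strains without that chromosome from MSM. The difference of Chr11 minus MSM was -0.773 mlog2 there and -0.695 mlog2 on 1452211_at (limma adjusted p = 0.0158 and 0.0298).

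Psme1, an interferon-induced activator gene on chromosome 14, stood at 0.528 and 0.336 mlog2 in the Chr14 males, against -0.175 and -0.487 mlog2 in the MSM males, with B6 at -0.267 and -0.303 mlog2. The Chr14 males were above both parental strains. By strain mean, MSM ranked 1 and B6 ranked 2 from the lowest, and Chr14 was highest. Every consomic strain mean thus lay above both parental strains. Chr14 was called neither against B6 nor against the strains without that chromosome from MSM. The difference of Chr14 minus MSM was 0.763 mlog2 (limma adjusted p = 0.00371). Psmc6, an ATPase gene on the same chromosome, stood at 0.116 and 0.0255 mlog2 on 1417771_a_at in the Chr14 males, against -0.161 and -0.225 mlog2 in the MSM males, and differed by 0.263 mlog2 (adjusted p = 0.0214).

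Leaving out MSM male 1 or MSM male 2 lowered the count of such pairs to 6 and 5. The causes of these differences were not tested.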

How the results depend on the processing

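Quantile normalization changed the picture most. It gave 45 members higher and 3 lower in MSM, 0 called in consomic strains on the substituted chromosome, 7 elsewhere, 4 in the own-chromosome strain against strains without it, 1 between C and T strains and 48 over the 30 strains, and a median 26S difference of 2.59. It reversed Psmc5 (0.0816), Psmd8 (-1.02), Psma5 (1.30) and Psmc2 (-1.68 mlog2) in MSM, Psmb4 in Chr3 (0.359 mlog2) and Psmd8 in Chr9 (-1.04 mlog2, both against strains without that chromosome). The gaps between probe sets adjacent in mean level exceeded the residual SD in 45 of 56 26S probe sets. Without the filter, 6 members were higher in MSM and 1 was called elsewhere. With 1 probe set per gene, 5 were called in own-chromosome strains against strains without it. First arrays alone gave 1 on the substituted chromosome, 5 against strains without it and 2 over the strains. Second arrays alone gave 3 elsewhere and 13 over the strains. The other 29 strains as control gave 10 higher and 13 lower in MSM. B6 with all strains lacking the chromosome as control gave 8 on it and 1 elsewhere. Scaled centring gave a median of -1.07. A fit of MSM and B6 alone gave 2 higher and 5 lower with 2 residual df. The cause of these changes was not tested.

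Leaving out each male gave 2 to 4 members higher and 4 to 7 lower in MSM, 2 to 5 called on the substituted chromosome, 0 to 5 elsewhere, 6 to 9 against strains without it, 0 to 1 between C and T strains, 5 to 8 over the strains and 5 to 12 against MSM, with a median of -0.74 to -0.19. The 5 on the substituted chromosome came without Chr9 male 1 or male 2, and the 5 elsewhere without Chr9 male 2. Of 21 named differences, trended and robust moderation kept the call and direction of 21, scaled centring of 20, second arrays of 17, first arrays of 11 and quantile normalization of 6, with 9 calls lost and 6 reversed under the last. Leaving out a male of the strains named in the comparison lost the call in 23 of 66 fits and reversed none. Psma5 lost it in 4 of 4, Psmc2 in 3 of 4 and Psmd8 in Chr7 against B6 in 3 of 4. No paired analysis was possible because the replicate numbers only name the males of a strain and pair no males across strains. With 2 males per strain, a difference from B6 had to reach 2.67 residual SDs in MSM and a median of 5.42 in the consomic strains to be called. The 95% interval of the difference of MSM from B6 spanned 2.02 to 2.41 residual SDs to each side over the tested members.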
